A study of Saccharomyces cerevisiae with 4 samples.

Results

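The transcripts of wild-type budding yeast, Saccharomyces cerevisiae, growing in galactose were ranked here by their microarray signal, to see which functions fill the 200 brightest genes and which genes lie near the background. The series holds 4 arrays, and only the 2 labelled wild type at 0 h, replicates 1 and 2, were used. Per the labels' protocols, the cultures were grown to mid-log phase in a selective medium with galactose, and total RNA was hybridised to Affymetrix arrays as biotin-labelled cRNA. In the time course described by the design text, galactose-grown cells are afterwards moved to glucose, so the 0 h cultures precede the move. Beyond these titles, the labels give neither the strain's genotype, nor what the selective medium selects for, nor the number of cells or clones behind a culture. Each gene was represented by its brightest probe set among those that the platform annotation pairs with 1 gene. Of 9335 probe sets, 6504 had 1 gene, and they covered 5656 genes. The 200 members are therefore selected on these signals, and their high values are a description with no test.

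In galactose, yeast first imports the sugar through a permease and converts it by the Leloir enzymes to glucose phosphate, which enters glycolysis. The GAL genes are switched on by the activator Gal4, which the inhibitor Gal80 holds back until the sensor Gal3 binds galactose. Galactose represses respiratory genes less than glucose does, so cells commonly ferment and respire side by side. Growing yeast is also known to spend much of its transcription on ribosomal protein genes. A probe set's signal depends on its own probes as well as on RNA, and it is not divided by transcript length. Ranks between genes below are therefore an order of signals, not of molecule numbers.

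The order of genes was close on both arrays, but the spread of signals was wider on replicate 2. The median signal of all probe sets was 47.6 on replicate 1 and 39.3 on replicate 2, while a mean trimmed by 2% on either side came to 125.1 on both. The brightest ranked gene read 2264 on replicate 1 and 4442 on replicate 2. Replicate 2 was the brighter array for 188 of the 200 members, or 94%, against 42.4% of all ranked genes. The median ratio of replicate 2 to replicate 1 was 1.48 for ranks 1 to 50, 1.22 for ranks 51 to 200 and 0.833 for ranks 3001 to 5656. Pairs of values below are MAS5 signals, on a linear scale, of replicate 1 and then replicate 2. Spearman's coefficient between the arrays was 0.971 across all ranked genes and 0.793 within the 200, over genes, which are not independent replicates. Ranked on either array alone, 190 of the 200 kept a place among the 200 brightest, and all 200 were among the 400 brightest of both arrays. The part of labelling, hybridisation or the cultures in this wider spread was not tested.

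**Figure D1:**
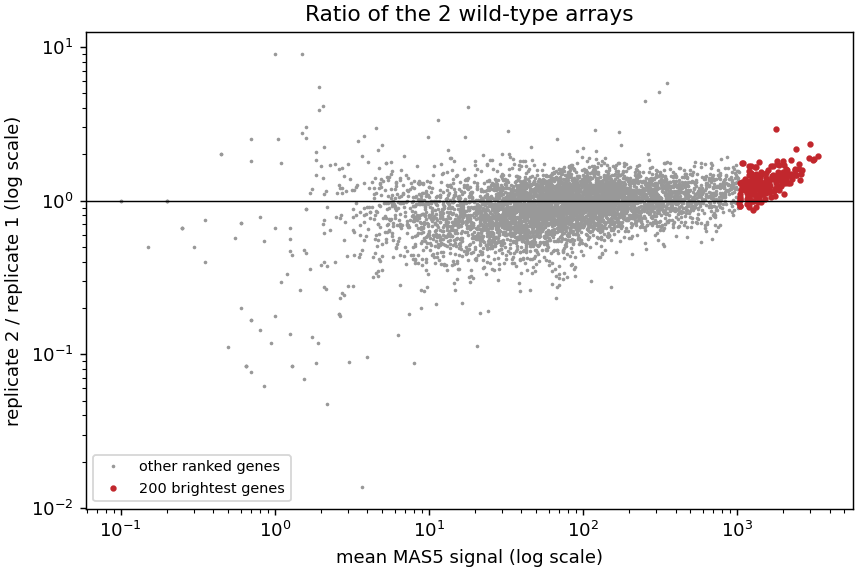
Ratio of replicate 2 to replicate 1 (y axis, log scale) against the mean MAS5 signal of the 2 arrays (x axis, log scale), 1 point per gene, with the 200 brightest in red and genes at 0 on either array not drawn. The red points lie mostly above the line at 1, with a median of 1.30, from 0.871 for PET9 to 2.93 for RPL36A.

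Genes for making protein filled more of the top than any other group described here, followed by genes of respiration, the cell surface and sugar use. The translation group, made of cytosolic ribosomal proteins, translation factors, tRNA synthetases and ribosome biogenesis factors, held 75 of the 200 places and 40.7% of their summed signal. A place went to 3.54% of all ranked genes, and to 30.2% of the 248 ranked translation genes. Listed nuclear genes of respiration and other mitochondrial functions held 25 places of 94 ranked, the cell wall and proton pumps 20 of 62, and sugar use 19 of 69. Stress proteins, chaperones and redox enzymes held 14 of 100, and biosynthesis of amino acids, nucleotides, lipids and acetyl units 16 of 208. The groups differed in how near the top they came: translation took 10 of the first 20 places and sugar use 5 of them, while respiration took 0 of the first 20 and 1 of the first 50. Another 26 of the 200 belonged to none of the function lists, and 5 were genes of secretion and the cytoskeleton.

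The 10 brightest genes were CCW12, RPS21A, RPS22A, TDH3, RPS21B, HSP12, YDR524C-B, ADH1, RPL21B and HYP2. By the mean of its 3 probe sets, YDR524C-B stood at rank 40 instead of 7. CCW12, a mannoprotein of the cell wall, led with 2264 and 4442 on replicates 1 and 2. TDH3, a glyceraldehyde-3-phosphate dehydrogenase of glycolysis, read 1779.7 and 4166, and ADH1, the main alcohol dehydrogenase of fermentation, 2165 and 2947. HSP12, a small membrane-associated stress protein, read 2057 and 3251, and HYP2, the translation factor eIF5A, 1942 and 3125. On replicate 1 the 10 genes lay close together, and on replicate 2 CCW12, TDH3 and the 3 small-subunit genes stood above the other members of the 10. The signal fell slowly through the 200, from a mean of 3353 at rank 1 to 1036 at rank 200, a ratio of 3.24. Rank 200 still lay 13.7-fold above the median gene, at 75.4. The boundary cut through a continuous run of signals: ATP2, AAT2 and URA2 ended the 200 at means of 1042, 1041 and 1036, and OLE1, GUK1 and ERG3 followed at 1034, 1026 and 1019.9. The 200 genes together made up 30.1% of the summed mean signal of the 5656, 27.1% on replicate 1 and 32.9% on replicate 2.

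**Figure D2:**
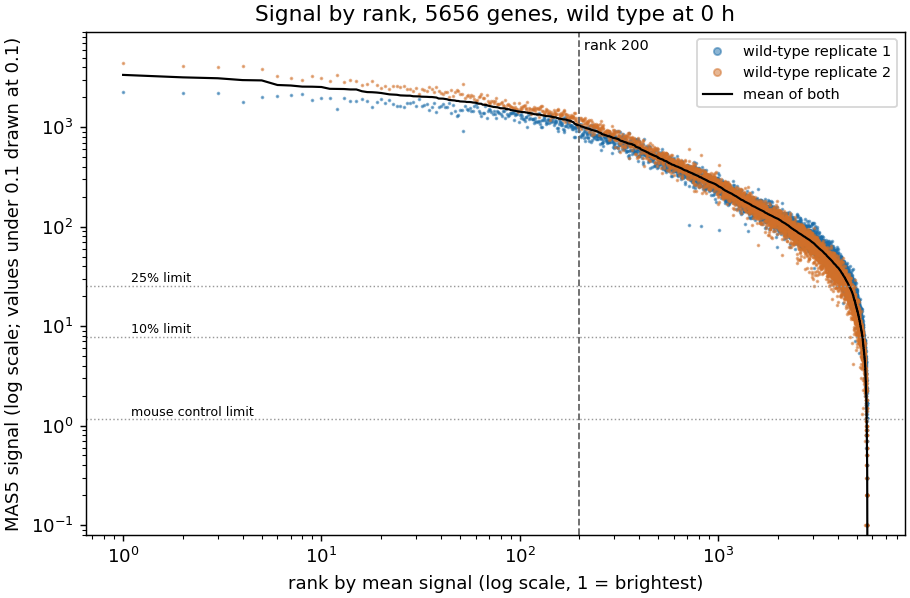
MAS5 signal (y axis, log scale) against rank by mean signal (x axis, log scale) for 5656 genes, with replicate 1 in blue, replicate 2 in orange and the mean as a black line. The dashed line marks rank 200, where the mean is 1036, and the dotted lines mark limits of 25.5, 7.8 and 1.15 near the background.

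Of the cytosolic ribosomal protein genes, which build the ribosome that translates nuclear-encoded mRNAs, 64 of 81 ranked genes were among the 200, or 79.0%. They were 39 of 47 for the large subunit and 25 of 34 for the small subunit. A further 54 of the 138 listed genes had only probe sets shared with other genes and were not ranked, and 3 were not measured here. The median ranked ribosomal protein gene stood at rank 88 with a signal of 1511, and all 81 together carried 11.7% of the summed signal of ranked genes. In the small subunit, the brightest were RPS21A at 2210.4 and 4124, RPS22A at 2180.4 and 4024 and RPS21B at 2033 and 3869.7. In the large subunit, RPL21B read 1869 and 3233, RPL5, whose protein binds 5S rRNA, 1926 and 2668, and RPL16A 1689.8 and 2567. The stalk proteins, which recruit elongation factors, included RPP0 at 1586 and 2432 and RPP1B at 1337 and 2329. RPS31, which encodes a ribosomal protein fused to ubiquitin, read 1938 and 2137. RPL36A had the highest ratio between arrays in the 200, 919 and 2694, which placed it at rank 209 on replicate 1 and 17 on replicate 2.

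Most yeast ribosomal proteins are encoded by a pair of near-identical A and B genes, and 31 pairs had both copies ranked. Both copies were in the 200 for 16 pairs, a single copy for 13, and neither for the RPL9 and RPS14 pairs. The most unequal pair was RPL22, where RPL22A read 1707 and 2329 and RPL22B 326 and 258. RPL7A read 1492 and 2529 and RPL7B 103 and 603, and RPS26A 1535 and 3318 against 434 and 572 for RPS26B. The 3 probe sets of RPL7A disagreed, and the dimmest, at a mean of 33.65, lay under the 353 of RPL7B. The direction of this pair therefore depends on the probe set used. In the RPL22, RPL7 and RPS26 pairs the arrays of one copy, on the probe sets used, did not overlap those of the other. The same held for less unequal pairs such as RPL14 and RPL24, so it does not set these 3 apart. The RPL17 and RPL27 copies were the most even of the 31 pairs, at ratios of 1.02 and 1.03 between means. Copies share much of their sequence, and 20 of the 64 ribosomal protein genes in the 200 were read by a probe set whose suffix marks related or rule-breaking sequence, so the split between copies is uncertain. Of the 17 ranked ribosomal protein genes outside the 200, 11 were still within the 400 brightest, and the lowest was RPL15B at rank 971.

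**Figure D3:**
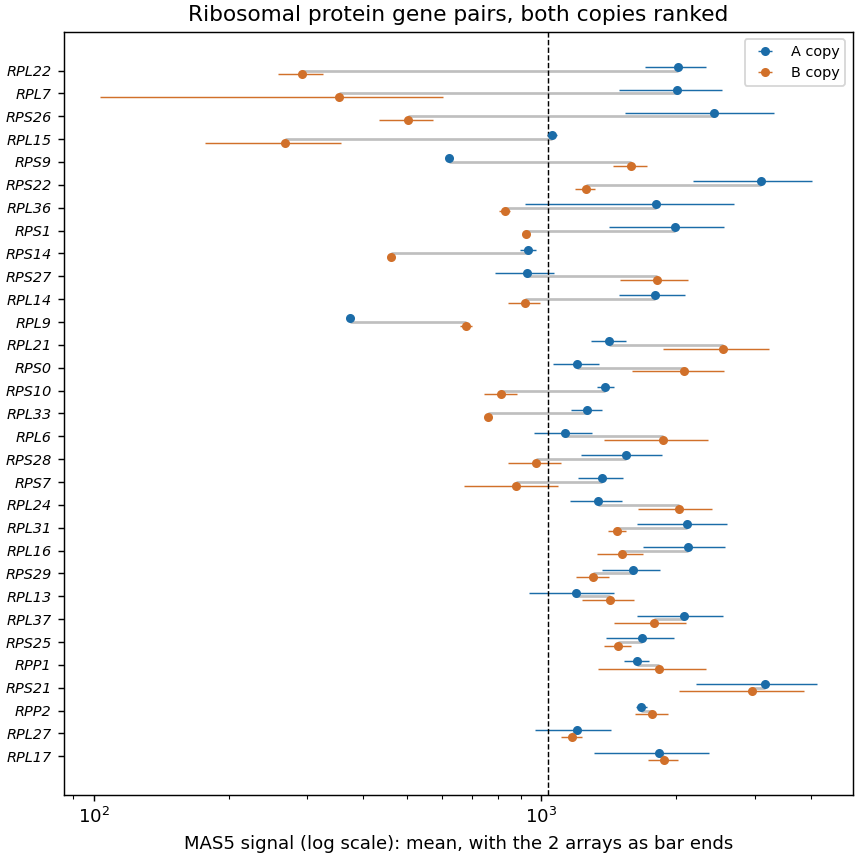
Mean MAS5 signal (x axis, log scale) of the A copy (blue) and B copy (orange) of 31 ribosomal protein gene pairs, with bars that end at the 2 arrays, ordered by the ratio between copies. The dashed line is the signal at rank 200, and RPL22, at a ratio of 6.91, is the most unequal pair.

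Other steps of protein synthesis were less concentrated at the top. Among 43 ranked translation factors 7 were in the 200, led by HYP2 and by YEF3, an elongation factor peculiar to fungi, at 1815 and 2690.3. TMA19, a ribosome-associated protein, read 1577 and 2237, and of the nascent-chain complex EGD2 read 1180.5 and 1745 and EGD1 1103 and 1599. The tRNA synthetases, which charge tRNAs with amino acids, had a median signal of 575, and 2 of 20 were in the 200: the aspartyl enzyme DPS1 at 892 and 1497 and the phenylalanyl subunit FRS1 at 948 and 1305. Ribosome biogenesis factors, which assemble ribosomes in the nucleolus, had 2 of 104 in the 200 and a median of 144. These were NOP58, a core protein of box C/D small nucleolar particles, at 1358 and 1539, and SNU13, which binds the same class of RNA, at 1059.7 and 1258. The 4 probe sets of NOP58 disagreed, the dimmest at a mean of 43.9, and by their mean it stood at rank 303 instead of 96. No mitochondrial ribosomal protein gene of 74 was in the 200, and their median was 158, with MRPL39 brightest at 508 and 521.

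Of the glycolysis and ethanol fermentation genes, 13 of 29 ranked were in the 200, with a list median of 983. After TDH3 and ADH1 came the triose phosphate isomerase gene TPI1 at 1974 and 2885, the pyruvate kinase gene CDC19 at 1834 and 2955 and the aldolase gene FBA1 at 1920.0 and 2489. The enolase gene ENO2 read 1754 and 2579.9, the phosphoglycerate kinase gene PGK1 1854 and 2420.5 and the mutase gene GPM1 1731 and 2266. PDC1, the main pyruvate decarboxylase, read 1638 and 1971. Genes for alternative forms of the same enzymes were spread widely, in examples chosen after their values were seen. The second enolase gene ENO1 was nearly as bright as ENO2, at 1631 and 2451. The probe sets of ENO1, ENO2 and TDH3 all have a suffix that marks related or rule-breaking sequence. The mitochondrial alcohol dehydrogenase gene ADH3 was in the 200 at 1006 and 1102, and TDH1 read 1028 and 893. The other decarboxylase genes were far lower than PDC1, PDC5 at 118 and 131 and PDC6 at 27.7 and 50.3. The second pyruvate kinase gene PYK2 read 56.9 and 37.5. ADH2, which glucose represses and whose enzyme oxidises ethanol, read 94.4 and 171. The sugar kinase genes HXK2, HXK1 and GLK1 stood together at ranks 126, 208 and 215.

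The structural GAL genes, which take up and convert galactose, were bright, and the genes of their 3 regulators read lower. Of these regulators, GAL80 stood at rank 804, above the median of all ranked genes, 75.4, while GAL4 and GAL3 lay under that median. GAL2, the galactose permease, read 1731 and 2414, GAL7, the uridylyltransferase, 1366 and 1673, and GAL1, the galactokinase, 1454 and 1424. GAL10, the epimerase, fell just outside the 200 at rank 204 with 1073 and 965. GCY1, a reductase gene with a Gal4 site, read 1225 and 1168, which made 4 of 14 list members in the 200. PGM2, the main phosphoglucomutase that links the pathway to glycolysis, read 664 and 739.6, against 78.2 and 126 for PGM1. The repressor gene GAL80 read 385 and 248, the activator gene GAL4 36.9 and 39 and the sensor gene GAL3 16.8 and 20.5. The 4 structural GAL genes did not overlap the 3 regulators on either array, and GAL3 alone of the list lay under 25.5, the 25th percentile of single-gene probe sets. Of the other list members, LAP3 read 523 and 529, FUR4 435 and 227, MTH1 246 and 257 and PCL10 50.1 and 51.6.

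Among 13 ranked hexose transporters and glucose sensors, 2 were in the 200. The near-identical high-affinity glucose transporter genes HXT6, at 1382 and 1632, and HXT7, at 1135 and 1543, were both read by probe sets marked for related sequence. HXT2, another high-affinity carrier, was next at 479 and 514. Of the low-affinity carriers HXT1 read 14.3 and 14.1 and HXT3 111 and 162. Of the sensor genes SNF3 read 50.1 and 29.4 and RGT2 38.4 and 34.2. The median of the list was 39.8, so the transporters were spread over most of the signal range.

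**Figure D4:**
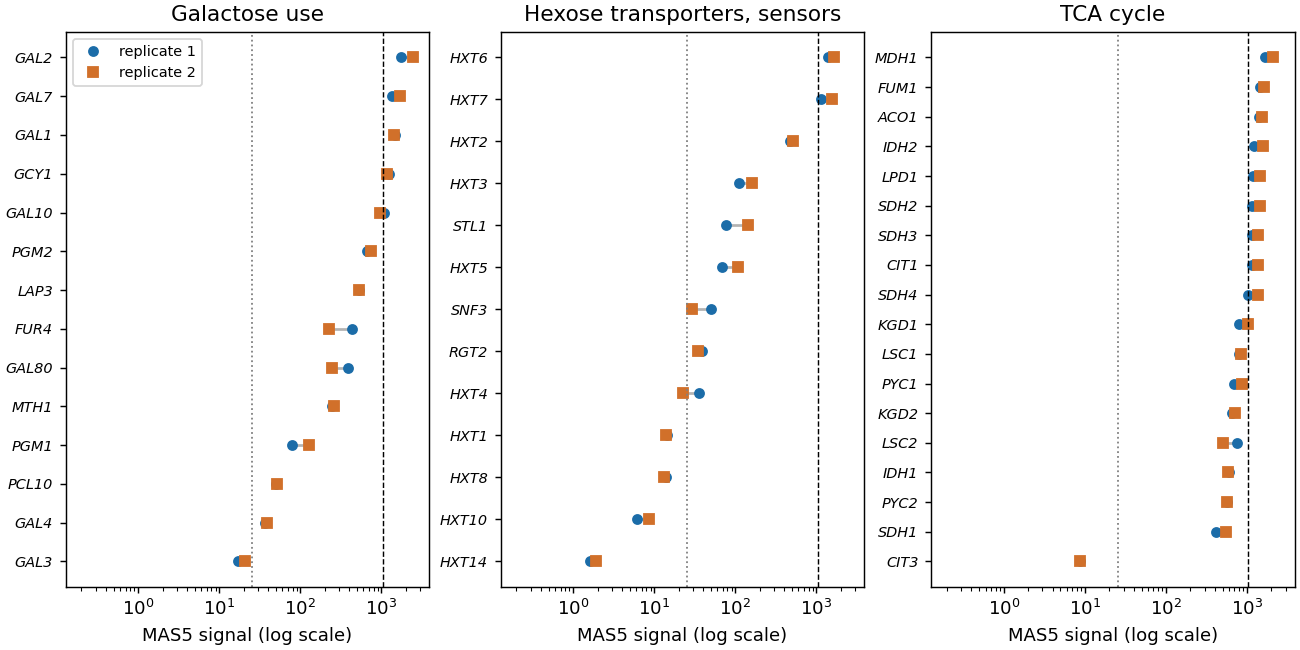
MAS5 signal (x axis, log scale) of every ranked gene of the galactose, hexose transporter and TCA cycle lists, with replicate 1 as blue circles and replicate 2 as orange squares. The dashed line is the signal at rank 200 and the dotted line the 25% limit of 25.5: GAL2, GAL7, GAL1 and GCY1 lie right of the dashed line, and GAL3 left of the dotted line.

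Respiratory genes were bright as well, most of all those of the tricarboxylic acid (TCA) cycle, which oxidises acetyl units in the mitochondrion. Of 18 ranked TCA cycle genes 9 were in the 200, with a list median of 1052, just above the signal at rank 200. MDH1, the mitochondrial malate dehydrogenase, read 1653 and 2069, the fumarase gene FUM1 1454 and 1637 and the aconitase gene ACO1 1400.4 and 1537. Of the succinate dehydrogenase subunits SDH2, SDH3 and SDH4 were in the 200 and SDH1 was not, at 419.8 and 552. CIT1, the mitochondrial citrate synthase, read 1154 and 1355, whereas its isozyme gene CIT3 read 8.8 and 8.8, the lowest of the list.

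Of the nuclear genes listed for the respiratory chain and ATP synthase, 12 of 40 were in the 200, with a median rank of 263. Among the 400 brightest were 28 of the 40. Subunits encoded by mitochondrial DNA were outside this list and are described below. COX12, a cytochrome c oxidase subunit, read 1452 and 1996, CYC1, the main cytochrome c, 1406 and 1817, and NDE1, an external NADH dehydrogenase, 1459 and 1732. Isoforms known from low oxygen stood far lower than their aerobic partners in these examples, which were chosen after their values were seen. The cytochrome c isoform gene CYC7 read 123 and 117, and the oxidase subunit gene COX5B 26.2 and 31.2 against 914 and 1084 for COX5A. ANB1, the hypoxic partner of HYP2, read 46.7 and 61.6. In the inner and outer mitochondrial membranes, the porin gene POR1 read 1469 and 1824, the phosphate carrier gene MIR1 1383 and 1588 and the ATP/ADP carrier gene PET9 1369 and 1193, while the hypoxic carrier gene AAC3 read 27 and 19.5. PET9 had the lowest ratio of replicate 2 to replicate 1 in the 200, at 0.871.

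Genes for growth on non-fermentable carbon were mostly lower than the respiratory genes. A single member of 25 was in the 200, against 3.54% of all ranked genes. It was ALD4, a mitochondrial aldehyde dehydrogenase, at 1143 and 1176. MDH2, the cytosolic malate dehydrogenase, read 698 and 1007, and PCK1, which commits oxaloacetate to gluconeogenesis, 398 and 597. FBP1, fructose-1,6-bisphosphatase, read 126 and 142, and of the glyoxylate cycle genes ICL1 read 100.1 and 149.8 and MLS1 179.6 and 232. The list median, 133, lay above the 75.4 of all genes. These enzymes are known to be repressed by glucose, and here the list ran from ALD4 down to ADY2 at 12.1 and 9.6.

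The cell wall supplied the brightest gene, and cell wall and proton pump genes of the plasma membrane and vacuole together made up 20 of the 200. Of 44 ranked cell wall genes 14 were in the 200, among them SED1 at 1778 and 2312 and CWP2 at 1589 and 2292, both wall proteins attached through a lipid anchor. Of the genes whose proteins remodel wall glucan, GAS1 read 1462 and 2077 and BGL2 1182 and 1385. The chitinase gene CTS1, which helps daughter cells separate, read 1211 and 1224. The dimmest of the list were genes of the spore wall: SPS100 at 14.2 and 12, GAS2 at 15.2 and 6.5, GAS4 at 11.4 and 9.2 and CRR1 at 7.3 and 5.1. PMA1, the proton pump of the plasma membrane, read 1392 and 1360.4 and its small partner gene PMP2 1288 and 1810.1, against 61 and 41 for the second pump gene PMA2. The vacuolar proton pump gave VMA3 at 1337 and 1527, VMA10 and VPH1 to the 200.

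Secretion had 3 of 43 ranked genes in the 200 and the cytoskeleton 2 of 33, where 3.54% of all ranked genes had a place. ARF1, a small GTPase of vesicle formation, stood at rank 18 with 1581 and 2909.5, and its close copy ARF2 read 1042 and 1473. ACT1, actin, read 1586 and 2257 and COF1, the actin-severing cofilin, 1089 and 1312.

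Some genes of stress proteins were very bright. Besides HSP12, HOR7, a small membrane-linked protein, read 1746 and 2400.4, DDR48 1139.7 and 1548 and DDR2 992 and 1481, all known as targets of general stress. In all 5 of 28 stress genes were in the 200. Other genes of the same list were low: the catalase gene CTT1 read 173 and 134, SIP18 83.1 and 83.8 and ALD3 26.3 and 25.1. Trehalose and glycogen genes, which are known to rise in slow growth, had 0 of 15 in the 200, against 3.54% of all ranked genes. Among them TPS1, the trehalose phosphate synthase gene, read 436 and 483.

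Chaperones had 5 of 33 genes in the 200. SSA1, a cytosolic Hsp70, read 1962 and 2874, on a probe set whose suffix marks that it broke a design rule, and SSA2 read 992 and 1639.6. The cyclophilin gene CPR1 read 1649 and 2225 and the constitutive Hsp90 gene HSC82 1009 and 1791. Against peroxide and superoxide, TSA1, the main peroxiredoxin, read 1464 and 2246, SOD1, the copper-zinc dismutase, 1271 and 1542 and AHP1, another peroxiredoxin, 1166 and 1534. With the flavohaemoglobin gene YHB1, 4 of 26 redox genes were in the 200, and a second probe set of YHB1 lay under the 25% limit.

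In biosynthesis, the brightest gene was one of lipid synthesis. ACC1, acetyl-CoA carboxylase, which starts fatty acid synthesis, read 1657 and 2389.8, FAS2, a fatty acid synthase subunit, 1209 and 1524, and the ergosterol gene ERG2 1164 and 1665. The 8 probe sets of FAS2 disagreed, the dimmest at a mean of 7.8, and by their mean it stood at rank 559 instead of 115. In all 6 of 35 sterol and fatty acid genes were in the 200. ITR1, the inositol transporter, read 1164 and 1271 and OPI3, a methyltransferase of phosphatidylcholine synthesis, 1054 and 1056. Of 39 nucleotide genes 4 were in the 200: URA1 at 1355 and 1489.7 and URA2 at 1052 and 1020.3, both of pyrimidine synthesis, ADE2 of purine synthesis at 1282 and 1277, and IMD3, for guanine nucleotides, at 1087 and 999. Amino acid synthesis had 2 of 73, HOM6 at 1109 and 1466 and AAT2 at 906 and 1176, against a list median of 341. Of the sulfur amino acid genes 1 of 22 was in the 200, the adenosine kinase gene ADO1 at 1128 and 1738. The others were split, with SAH1, which breaks down S-adenosylhomocysteine, at 788 and 889 and the sulfate permease genes SUL1 at 4 and 4.8 and SUL2 at 12.1 and 14.2.

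The 26 members outside the function lists were grouped by known function after their values were seen. They included 6 genes of the cell surface, such as HPF1 at 1286 and 2150.3 and NCW1 at 1374 and 1987, and 3 of the vacuole, where PEP4, proteinase A, read 1178 and 1399 and PBI2, an inhibitor of proteinase B, 1139 and 1421. GCN4, the activator of amino acid synthesis genes, stood at rank 75 with 1349 and 1839.7; its protein is known to be controlled at translation. NPL3, an mRNA-binding protein, read 1319 and 1603 and GSP1, the Ran GTPase of nuclear transport, 1096 and 1315. MIC10, which shapes the inner mitochondrial membrane, read 1389 and 2049.9 and IPP1, inorganic pyrophosphatase, 1346 and 1753. The brightest of the 26, YDR524C-B at 2111 and 3135, has only a systematic name, as have YNL208W and YCR024C-B. The dimmest of the 3 probe sets of YDR524C-B had a mean of 841.

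Several functions needed by every growing cell had no ranked member in the 200. The medians of the proteasome, RNA polymerase, permease and pentose phosphate lists still lay above the 75.4 of all ranked genes. The list of 41 ubiquitin and proteasome genes, for protein breakdown, had a median of 291 and ran from 128 to 780 (CDC48 at 734 and 827, the brightest). The 31 RNA polymerase subunits had a median of 200.1 and a brightest member, RPB8, at 465 and 489. Plasma membrane permeases for amino acids and bases had a median of 137, with GNP1 brightest at 552 and 497, and the pentose phosphate pathway one of 264, with TKL1, transketolase, at 804 and 1133. Of the histone and related chromatin genes, 7 were ranked: the H2B genes read 825 and 1013 for HTB1 and 507 and 868 for HTB2, the H2A variant gene HTZ1 200.3 and 219 and the centromeric H3 variant gene CSE4 37.4 and 53.3. The H2A, H3 and H4 genes were read only by shared probe sets, which are outside the ranking, and some of these were brighter than rank 200: 1 for HTA1 and HTA2 had a mean of 1852 and 1 for HHT1 and HHT2 a mean of 3164. Other lists were lower still, with medians of 56.8 for 67 genes of Mediator, SAGA and the general factors, 62.5 for 32 cell cycle regulators, 29.2 for 44 repair genes and 28.4 for 26 autophagy genes.

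**Figure D5:**
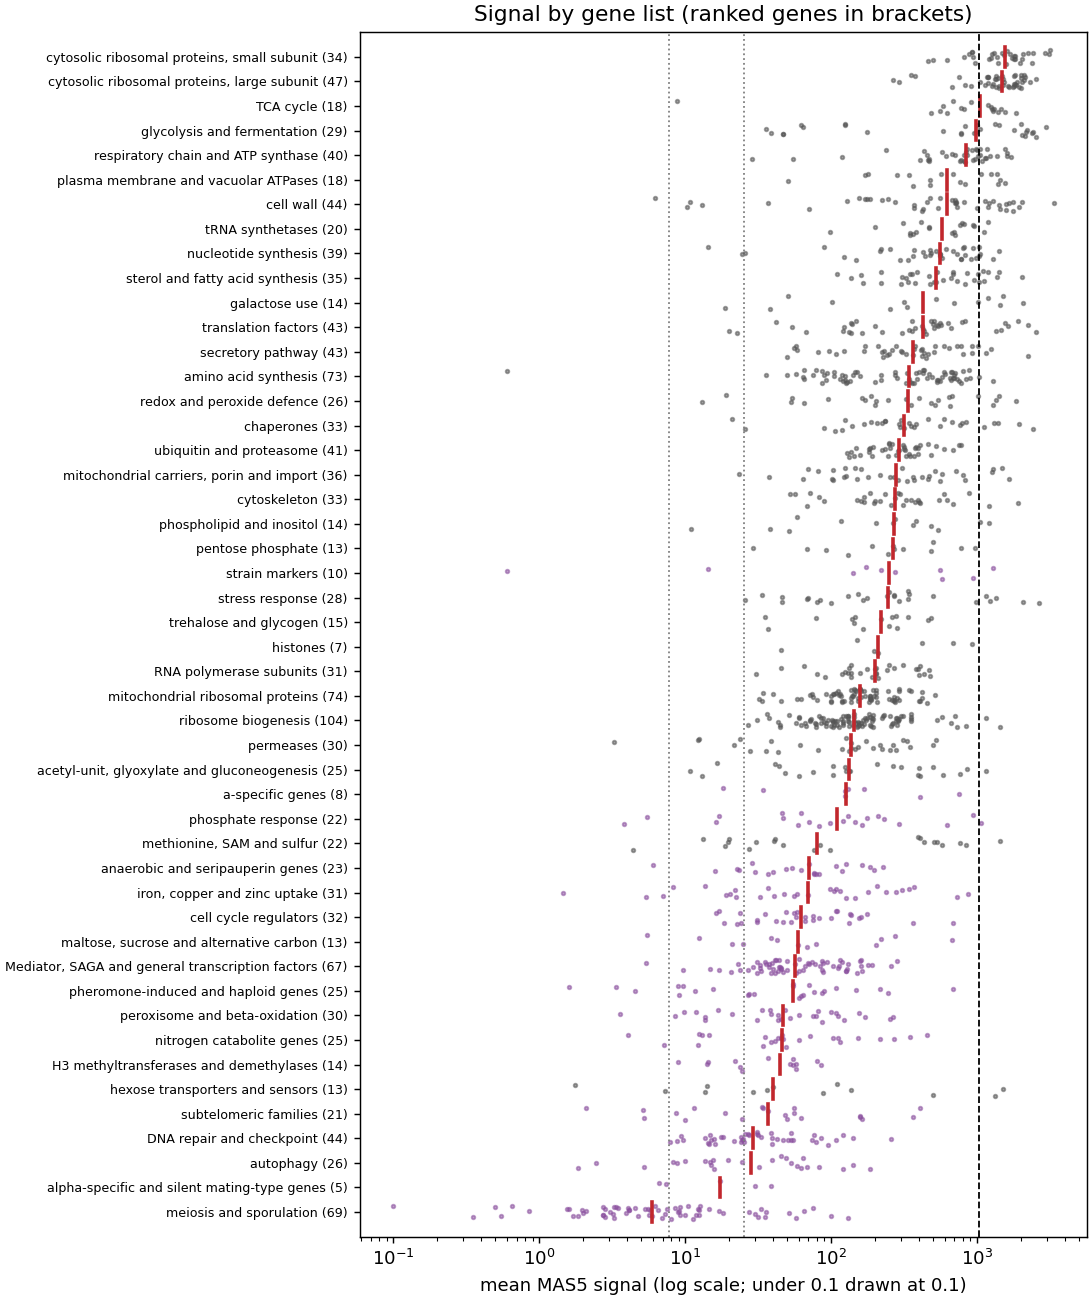
Mean MAS5 signal (x axis, log scale) of every ranked gene in 48 gene lists, 1 row per list with its number of ranked genes, ordered by the list median (red bar). Grey points are function lists and purple points lists of low or reference genes; the dashed line is rank 200 and the dotted lines the limits at 7.8 and 25.5, and medians run from 1565 for small-subunit ribosomal proteins to 5.9 for meiosis.

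At the other end, a background level was taken from the 4 control probe sets for mouse genes, which yeast lacks. The brightest of them had a mean of 1.15, and 41 genes, 0.725% of those ranked, were at or under it. The limit is strict, since it rests on 4 probe sets, so counts are also given at the lowest 10% of single-gene probe sets, a signal of 7.8 with 314 genes or 5.55% at or under it, and at the lowest 25%, 25.5, with 1088 genes or 19.2%. Of the 41 genes, 25 were at or under 1.15 on both arrays, and no value of the 41 passed 1.8. They comprised 36 protein genes, of which 19 have only a systematic name, with 2 snoRNAs, 2 tRNAs and 1 pseudogene. Meiosis genes made up 6 of them, and the lowest of all ranked genes was MND1, needed for meiotic recombination, at 0 and 0.1. The other 5 were REC114, SPS22, CDA1, MEI5 and DIT2. A low signal may come from little RNA or from a probe set that responds weakly, and these cannot be told apart here.

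Meiosis and sporulation had the lowest median of the 48 lists. Of 69 ranked genes 0 were in the 200, 40 were at or under the 10% limit (58.0%) and 57 at or under the 25% limit (82.6%), with a median of 5.9. IME1, the inducer of meiosis, read 24.5 and 30.6, IME2, the kinase it activates, 11 and 7.4, NDT80, the activator of middle meiotic genes, 15.2 and 18.7 and SPO11, which cuts DNA for recombination, 4 and 2.5. The brightest members were SPR6 at 112 and 149, SPS19 at 115 and 86 and the cyclin gene CLB1 at 81.3 and 69.9.

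The mating-type genes were read to check the cell type. Of the 6 defining markers of a cells, the pheromone genes read 580.5 and 921 for MFA2 and 420.3 and 399.6 for MFA1, the alpha-factor receptor gene STE2 199 and 136, the exporter gene STE6 182 and 78.2, the protease gene BAR1 105 and 143 and AGA2 127 and 121. Of the alpha-cell markers MF(ALPHA)1 read 18.8 and 16.1, MF(ALPHA)2 8.8 and 5.9, STE3 5.1 and 8.1 and SAG1 37.2 and 39.7. All 6 a-cell markers read above all 4 alpha-cell markers on both arrays, but the list of 8 a-specific genes as a whole did not. Its other members, AXL1 at 36.2 and 31.8 and ASG7 at 18.5 and 18.1, read under SAG1 on both arrays, and the alpha-specific AFB1 read 25.1 and 35.1. In a bulk culture, fewer cells of a type and less RNA per cell cannot be told apart. The list of pheromone-induced and haploid genes was mixed. FAR1, a cell cycle inhibitor, read 713 and 660.2 and the G-protein gene STE4 220.5 and 211. The cell fusion gene FUS1 read 11.7 and 6.2 and PRM2 1.7 and 1.5. HO, the mating-type switching endonuclease gene, read 231 and 258.

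Lists for anaerobic growth, other carbon sources, metals, phosphate and nitrogen had 17.4% to 30.8% of their genes at or under the 25% limit. Other lists for particular conditions are not counted in this range. The shares of the pheromone-induced and haploid list and of the subtelomeric list lay above it. The share of all ranked genes at or under the limit was 19.2%. Of 23 anaerobic and seripauperin genes 4 (17.4%) were at or under it, with TIR3, a wall mannoprotein gene, brightest at 229 and 225 and DAN1 lowest at 6.7 and 5.4. Of 13 genes for maltose, sucrose and other carbon sources 4 (30.8%) were, with MPH2 at 4.6 and 6.3, while SUC2, invertase, read 254 and 182 and GUT2, of glycerol use, 682 and 662. The 3 probe sets of SUC2 disagreed, the dimmest at a mean of 0.1. In iron, copper and zinc uptake the count was 9 of 31 (29.0%), and FET3, the iron-oxidising ferroxidase, read 593 and 1143 and FRE5 2.3 and 0.6. In the phosphate response it was 4 of 22 (18.2%), and SND3, also known as PHO88, was in the 200 at 987 and 1155, the acid phosphatase gene PHO3 read 713 and 1178 and SPL2 3.3 and 4.3. In nitrogen use it was 6 of 25 (24%), and the arginase gene CAR1 read 368 and 548 and the regulator gene DAL80 2.9 and 5.2. Each of these lists thus spanned a wide range, and none was uniformly dim.

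Nutritional marker genes were read because the labels do not give the strain's marker genotype. ADE2 was in the 200, ADE1 read 737 and 1136, MET17 524 and 626 and HIS4 445 and 666. LEU2 read 266 and 286, HIS3 173 and 266, LYS2 128 and 155 and CAN1 162 and 184. TRP1 was among the 41 genes near background at 0.7 and 0.5, and URA3 read 14.1 and 14.6, under the 25% limit. Of the 14 genes for H3 methyltransferases, their partners and demethylases, none was bright: SET1, for lysine 4, read 90.8 and 69.7, DOT1, for lysine 79, 32.5 and 41 and SET2, for lysine 36, 14.9 and 3. Of the 14, 6 were at or under the 25% limit, against 19.2% of all ranked genes, and the median was 44.4.

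Genes of the mitochondrial DNA were at opposite ends of the ranking. Of 19 ranked protein genes 2 were in the 200, OLI1, an ATP synthase subunit, at 1403 and 1274 and COX1, a cytochrome c oxidase subunit, at 1169 and 1459. Another 16 were at or under the 25% limit, against 19.2% of all ranked genes. They included COX3 at 27.7 and 9.8, COX2 at 6.1 and 3.1 and VAR1, a mitochondrial ribosomal protein, at 1.8 and 0.6. Probe sets of the same gene disagreed, since a second probe set of OLI1 had a mean of 0.6 and the dimmest of COX1 22.9. The median ratio of replicate 2 to replicate 1 was 0.351 for these 19 genes, against 0.949 for all ranked genes. The part of the probe design or of RNA labelling in these values was not tested.

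Genes of snoRNAs, tRNAs and snRNAs were dim more often than ranked genes as a whole, of which 19.2% were at or under the 25% limit. Of 57 snoRNAs 34 were at or under the 25% limit, with SNR77 brightest at 332 and 238, and so were 42 of 91 tRNA genes and all 4 snRNAs. Of the 4 ranked rRNA genes RDN5-1 read 752 and 1039.5 and RDN25-1 102 and 523, a wide gap between arrays. Median ratios of replicate 2 to replicate 1 were 0.673 for snoRNAs and 0.667 for tRNAs.

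The 200 genes were all protein-coding and tended to be short, a feature that the ranking did not use directly and that was not tested. Their median gene length, introns included, was 847.5 bases, against 1249.5 for the 5486 ranked protein genes, and 32.5% were under 600 bases against 15.9%. The median was 943.5 bases for the 136 members that are not ribosomal protein genes. The 289 protein genes at or under the 10% limit were short too, with a median of 837 bases. Across all ranked protein genes length and signal had a Spearman coefficient of -0.071. Only 5 of the 200 were longer than 3000 bases: URA2, COX1, FAS2, ACC1 and YEF3. Protein genes with only a systematic name were 1.5% of the 200, 8.09% of all and 29.4% of those at or under the 10% limit.

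Bright genes were also neighbours along the chromosomes in 12 cases, such as AHP1 with CCW12, HXT7 with HXT6, RPS22A with RPL39 and HSP150 with CIS3. Of the 364 ranked genes next to a member, 24 or 6.59% were themselves in the 200, against 3.54% of all genes. The median signal of these neighbours, 77.8, was close to the 77.5 of all protein genes. Plain probe sets, whose suffix marks no related sequence, read 166 of the 200, or 83%, against 95.1% of all ranked genes. Of the 33 members with several probe sets, 12 had every probe set at or above the signal of rank 200, and 4 had 1 at or under the 25% limit.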

How the data were processed

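RNA of 4 yeast cultures was measured on Affymetrix arrays, and the 2 mutant arrays were not used here. The authors deposited linear intensities, 1 MAS5 signal for each probe set (tool per the submitters' processing notes). Its version and scaling target were not given in the sources used here. Groups and replicate numbers came from the sample titles, and the design text speaks of replicate cultures. The number of arrays, 2, limits the precision of every value.

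Control probe sets (60), probe sets shared by several genes (328) and probe sets without a listed gene (2443) were left out. The highest of a gene's probe sets by mean signal represented it, and 5656 genes were ranked by that mean. Names, gene lengths and gene order came from the RefSeq table of assembly R64. No test was made, since the members are chosen by the signals described. The SD of log2 values used a pseudocount of 2. The ranking was tested on simulated data.

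The members and 48 gene lists were chosen with earlier results of these data known. Named genes were the 10 brightest, the 3 brightest of each function list with a member in the 200, those at the boundary, the 5 highest and 5 lowest replicate ratios, the 3 brightest and 2 dimmest of low and reference lists, and fixed GAL, marker, H3 methylation and mating-type genes; others were added after their values were seen. Alternatives changed the arrays, averaging, scaling, probe sets, number of genes and background limit. Protein composition and promoter motifs were not analysed here. Python 3.11.15, pandas 2.3.3, numpy 2.4.6, scipy 1.17.1 and matplotlib 3.10.9 were used.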

Additional observations from a re-analysis of the deposited data

Results flagged for a closer look

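Probe sets outside the ranking also carried bright signals. Of the 328 probe sets shared by several genes, 75 had a mean at or above that of the 200th gene, or 22.9%, and 48 of these read ribosomal protein genes. They included the pair CUP1-1 and CUP1-2, copper-binding metallothioneins, at 2113 and 3372 on replicates 1 and 2, the elongation factor genes TEF1 and TEF2 at 1769 and 2383, the H2A genes HTA1 and HTA2 at 1694 and 2009, and the Hsp70 genes SSB1 and SSB2 at 1314 and 1713. The H3 genes HHT1 and HHT2 shared 3 probe sets that disagreed, at means of 3164, 707 and 2.85, and the H4 genes HHF1 and HHF2 shared 1 at 739.

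Of the 2443 probe sets without a listed gene, 20 were at or above the same signal, 0.819%, the brightest at 1671 and 2705. As a class these probe sets were dim, with a median of 5.65 against 65.9 for single-gene probe sets, and 58.1% were at or under the 10% limit. The 20 are unnamed here.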

How the results depend on the processing

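No paired analysis was possible because only the wild-type group was described and no groups were compared. Of the 200 brightest genes, 199 remained with the mean of log2 values or quantile normalisation, 188 with the mean of a gene's probe sets, 170 with plain probe sets only, 143 with shared probe sets ranked too, and 190 when either array was left out. The 64 ribosomal protein genes became 62 to 63 with an array left out, 45 with plain probe sets only, 90 with shared probe sets, 43 among the 100 brightest and 75 among the 400 brightest. The count of 12 respiratory chain genes became 5 with shared probe sets ranked too, 4 among the 100 brightest and 28 among the 400, and 9 to 15 with an array left out. TCA cycle genes numbered 3 among the 100 brightest and 14 among the 400, 6 with shared probe sets, and cell wall genes 9 and 22. Glycolysis genes stayed between 10 and 19 over all settings. Genes near background numbered 41 under the mouse control limit, 24 under its median, 314 and 1088 under the 10% and 25% limits, 366 under the brightest antisense control, a limit added after seeing the data, and 35 without replicate 2 to 92 without replicate 1. Among 193 named genes, ranks moved by more than the SD of the arrays' ranks in 22 without replicate 1, 39 without replicate 2, 2 under quantile normalisation and 46 with the mean of probe sets. Probe-set response and 2 arrays limit what any rank shows.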
